A study of Mus musculus with 8 samples.

Results

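The genes described here are 45 listed genes of the motile cilium, the beating organelle that ependymal cells carry at the walls of the brain ventricles. They were taken from the deposited table by an exact match of its gene name to the list, which found all 45 among the 43346 rows. The RNA came from cortex with hippocampus, dissected from 8 mice at 1.5 months of age. In 4 mice the label gives GFP as the genotype and in the other 4 GFP-GR100, a fusion of green fluorescent protein to 100 repeats of the dipeptide glycine-arginine, and each group held 2 females (replicates 1 and 2) and 2 males (replicates 3 and 4). The fusion was built in a pAAV-EGFP vector plasmid, so that the fluorescent protein is common to the groups. The strain, the promoter, the route of delivery, the cells that made the protein and whether animals shared a litter were not stated in the labels. Poly(GR) is among the dipeptide repeat proteins translated from the expanded repeat of C9orf72 in amyotrophic lateral sclerosis and frontotemporal dementia. Each animal gave 1 library, with total counts from 65880460 to 89113010.

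A motile cilium is built on an axoneme, a ring of doublet microtubules around a central pair. Outer and inner dynein arms slide the doublets past each other, radial spokes carry signals from the central pair to the arms, nexin links hold neighbouring doublets together, and tektins are filamentous proteins of the doublet wall. The transcription factor Foxj1 drives the programme together with Rfx factors, and in the brain the beating cilia of the ependyma move cerebrospinal fluid, while the epithelium of the choroid plexus carries tufts of related cilia.

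Some of these genes were lower in GFP-GR100 brains and others were not, and the split followed no single part of the axoneme. Sntn was 82.6% and Tmem212 82.5% lower, Fam216b 72.2%, Ccdc153 66.6%, Ak7 54.7%, Drc7 53.2% and Dnah6 42.1% lower, by the fitted fold change. None of the transcription factors, radial spoke genes, central pair genes or tektins passed the test, and 9 of the 10 dynein heavy chain genes did not. All 45 genes passed the filter on low counts, in a model with sex and group fitted over 20987 genes. Of the 45, 7 fell and 0 rose (edgeR quasi-likelihood test, Benjamini-Hochberg adjusted p under 0.05 over all genes tested), beside 0.324% of all tested genes called lower and 2.19% called higher. At an unadjusted p under 0.05, 20 of the 45 were lower and 0 higher, where the shares over all genes were 7.37% and 8.23%. The 4 GFP-GR100 values lay below all 4 GFP values for 13 of the 45 and above them for 0, beside 3.03% and 5.03% of all genes. DESeq2 called 9 of the 45 lower and 0 higher (0.953% and 3.45% of all genes), limma-voom 7 and 0 (0.338% and 2.32%), and edgeR with no filter on low counts 12 and 1 (1.12% and 3.64%). When genes had to average 1 CPM or more, which left 34 of the 45, edgeR called 4 lower and 0 higher (0.219% and 2.68%). On the log2 scale the change in GFP-GR100 relative to GFP was below 0 for 32 of the 45, or 71.1%, against 54.6% of all genes, and its median was -0.36 against -0.02. The 45 genes were chosen with earlier results of these data known, so their excess over all genes is a description and not an independent test. In bulk tissue, fewer ependymal cells, less RNA per ependymal cell and less ventricle wall or choroid plexus in the dissection cannot be told apart.

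**Figure D1:**
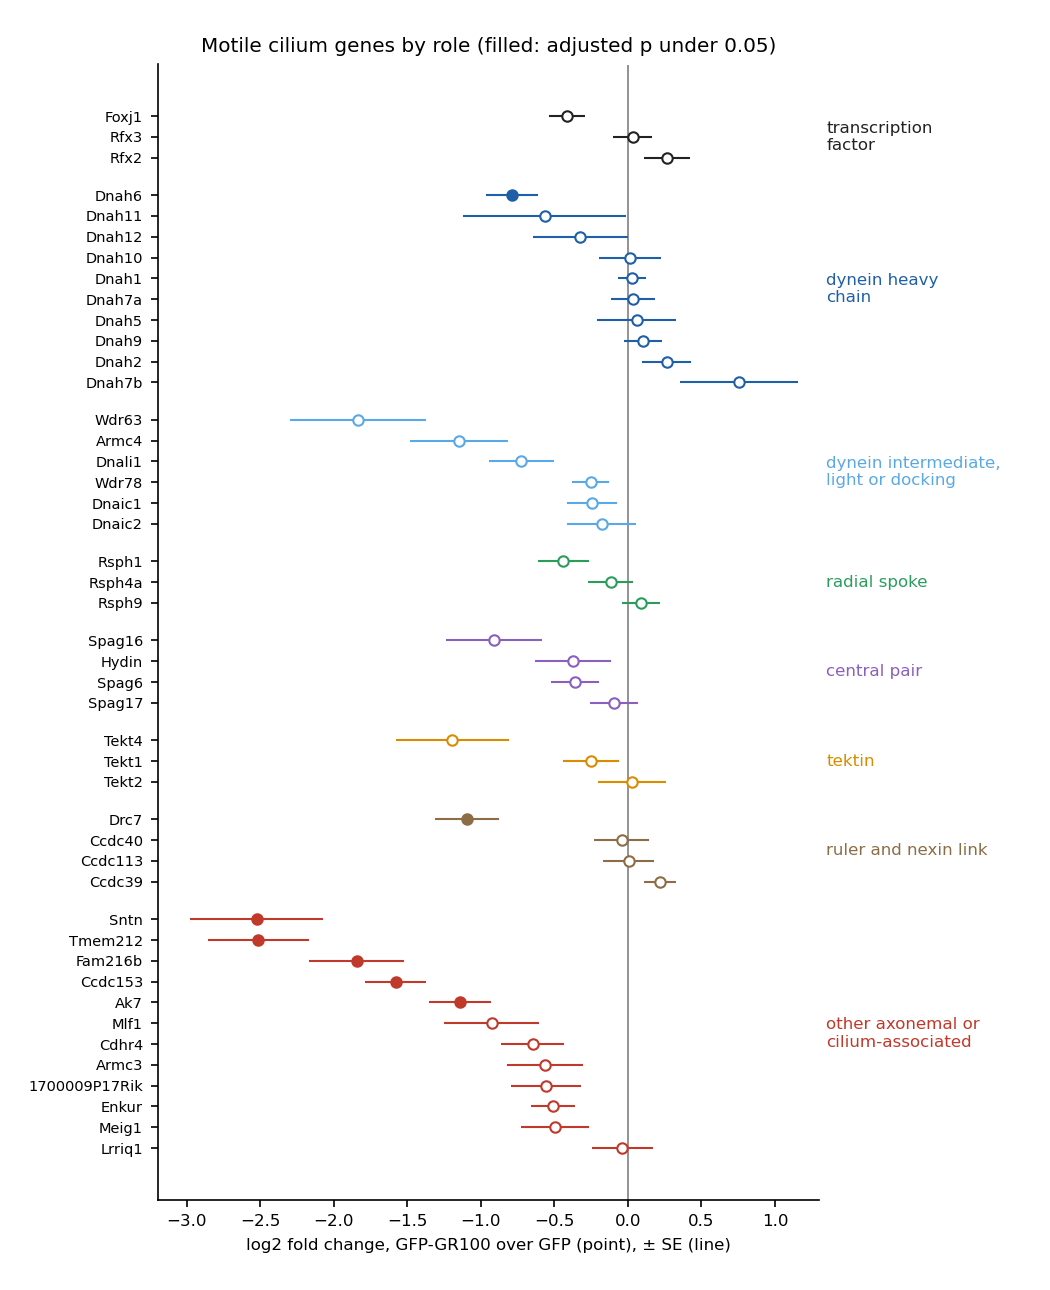
Log2 fold change in GFP-GR100 relative to GFP (horizontal axis) for the 45 genes grouped by role, with lines for ± SE and filled points for an adjusted p under 0.05. The 7 filled points all lie left of 0, and 5 of them are in the lowest block, of other axonemal and cilium-associated genes.

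None of the 3 transcription factors passed the test, and among them only Foxj1 had a fold change below 0. Foxj1, the forkhead factor that switches on motile ciliogenesis, measured 7.22, 9.75, 13.1 and 11.2 CPM (counts relative to the library total, scaled by TMM) in GFP 1 to 4 and 6.81, 7.0, 7.92 and 8.93 CPM in GFP-GR100 1 to 4. The groups overlapped, because GFP 1, the lowest GFP library, lay below GFP-GR100 3 and 4. Its log2 fold change was -0.42 (SE 0.12) and did not pass the test (adjusted p = 0.124), though it did without GFP 1 (adjusted p = 0.0426). Rfx3, which binds the X-box motif in cilium gene promoters, measured 72.1, 59.5, 35.8 and 45 CPM in GFP and 55.5, 53.7, 53.9 and 47.8 CPM in GFP-GR100. The GFP-GR100 values all fell inside the GFP range, and the log2 fold change was 0.03 (SE 0.13). The related factor Rfx2 measured 1.89 to 2.35 CPM in GFP and 2.21 to 2.65 CPM in GFP-GR100, with overlapping groups and a log2 fold change of 0.27 (SE 0.15, adjusted p = 0.421).

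The 10 dynein heavy chain genes, which encode the motor subunits of the arms, had a median log2 fold change of 0.03, and only Dnah6 fell. Dnah6, an inner arm heavy chain on chromosome 6 from 73017606 to 73221651 in mm10, measured 1.96, 1.81, 1.72 and 2.05 CPM in GFP and 0.942, 1.20, 1.16 and 1.05 CPM in GFP-GR100. The lowest GFP value lay well above the highest GFP-GR100 value, and the means were 1.89 ± 0.147 and 1.09 ± 0.118 CPM (SD, n = 4 each; log2 fold change -0.79, SE 0.18, adjusted p = 0.0324). Its call was lost in 10 of 18 other settings, among them the removal of any single library other than GFP 3 (adjusted p from 0.0636 to 0.128) and both fits on RPKM values (0.268 and 0.291), with the direction kept throughout.

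Heavy chains of the outer arm did not pass. Dnah5, whose loss causes primary ciliary dyskinesia, measured 6.60, 5.24, 2.29 and 4.06 CPM in GFP and 4.11, 4.02, 5.40 and 4.68 CPM in GFP-GR100. The spread within GFP covered all GFP-GR100 values (log2 fold change 0.06, SE 0.27). Dnah9 measured 7.34, 6.08, 4.20 and 4.74 CPM in GFP and 6.78, 6.24, 5.67 and 5.0 CPM in GFP-GR100, again inside the GFP range (0.11, SE 0.13). Dnah11 measured 1.22, 3.11, 1.31 and 0.918 CPM in GFP and 0.701, 0.533, 1.59 and 1.86 CPM in GFP-GR100. GFP 2 stood far above the other GFP libraries for Dnah11, and in GFP-GR100 the males lay above the females, so its log2 fold change of -0.57 had an SE of 0.56. Of the inner arm heavy chains other than Dnah6, Dnah1, Dnah2, Dnah7a, Dnah10 and Dnah12 had log2 fold changes from -0.32 to 0.26, with overlapping groups.

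The highest fold change of the 45 belonged to Dnah7b, an inner arm heavy chain, without passing the test. It measured 4.67, 3.46, 1.83 and 2.37 CPM in GFP and 3.04, 4.24, 5.21 and 8.18 CPM in GFP-GR100. GFP-GR100 4 stood highest and the groups overlapped (log2 fold change 0.75, SE 0.40, adjusted p = 0.403). Dnah7b was called higher in 2 other settings, with no filter on low counts (adjusted p = 0.000346) and with the share of counts at ribosomal RNA loci in the model (adjusted p = 0.0274). Dnah7a and Dnah7b are near copies: 29.4% of the stretches of 50 bases in Dnah7a exons and 18.6% of those in Dnah7b also occur in the other gene. A further copy, Dnah7c, holds 29.1% of these stretches of Dnah7a and 23.6% of those of Dnah7b, so the split of reads among the 3 genes is uncertain.

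The 6 genes of dynein intermediate chains, light chains and docking proteins were all below 0 on the log2 scale, with a median of -0.49, and none passed. Their summed level ran from 16.8 to 22.4 CPM in GFP and from 14.2 to 17.4 CPM in GFP-GR100, while the summed heavy chains ran from 28.1 to 41.0 and from 34.5 to 41.4 CPM. Wdr63, an inner arm intermediate chain, measured 0.445, 0.500, 0.477 and 0.434 CPM in GFP and 0.219, 0.178, 0.129 and 0.0146 CPM in GFP-GR100, the last value from 1 count. The groups did not overlap, but the log2 fold change of -1.83 (SE 0.46) stayed short of the threshold (adjusted p = 0.0622). It was called lower with no filter on low counts, by DESeq2 (adjusted p = 0.0121), on log2(RPKM + 0.1) and with the ribosomal share in the model. Dnali1, a light intermediate chain of the inner arm, measured 1.55, 1.69, 2.99 and 2.20 CPM in GFP and 1.51, 1.09, 1.07 and 1.3 CPM in GFP-GR100. Its groups also stood apart, by the gap between 1.51 and 1.55 CPM, with a log2 fold change of -0.72 (SE 0.22, adjusted p = 0.131). Armc4, a docking protein of the outer arm, measured 1.17, 0.756, 0.799 and 0.571 CPM in GFP and 0.635, 0.583, 0.271 and 0.132 CPM in GFP-GR100. GFP-GR100 3 and 4 were the lowest of the 8 libraries, but the females overlapped GFP (-1.15, SE 0.33, adjusted p = 0.109, or 0.0463 by DESeq2). The outer arm intermediate chains Dnaic1 and Dnaic2 and the inner arm chain Wdr78 had log2 fold changes from -0.25 to -0.18.

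**Figure D2:**
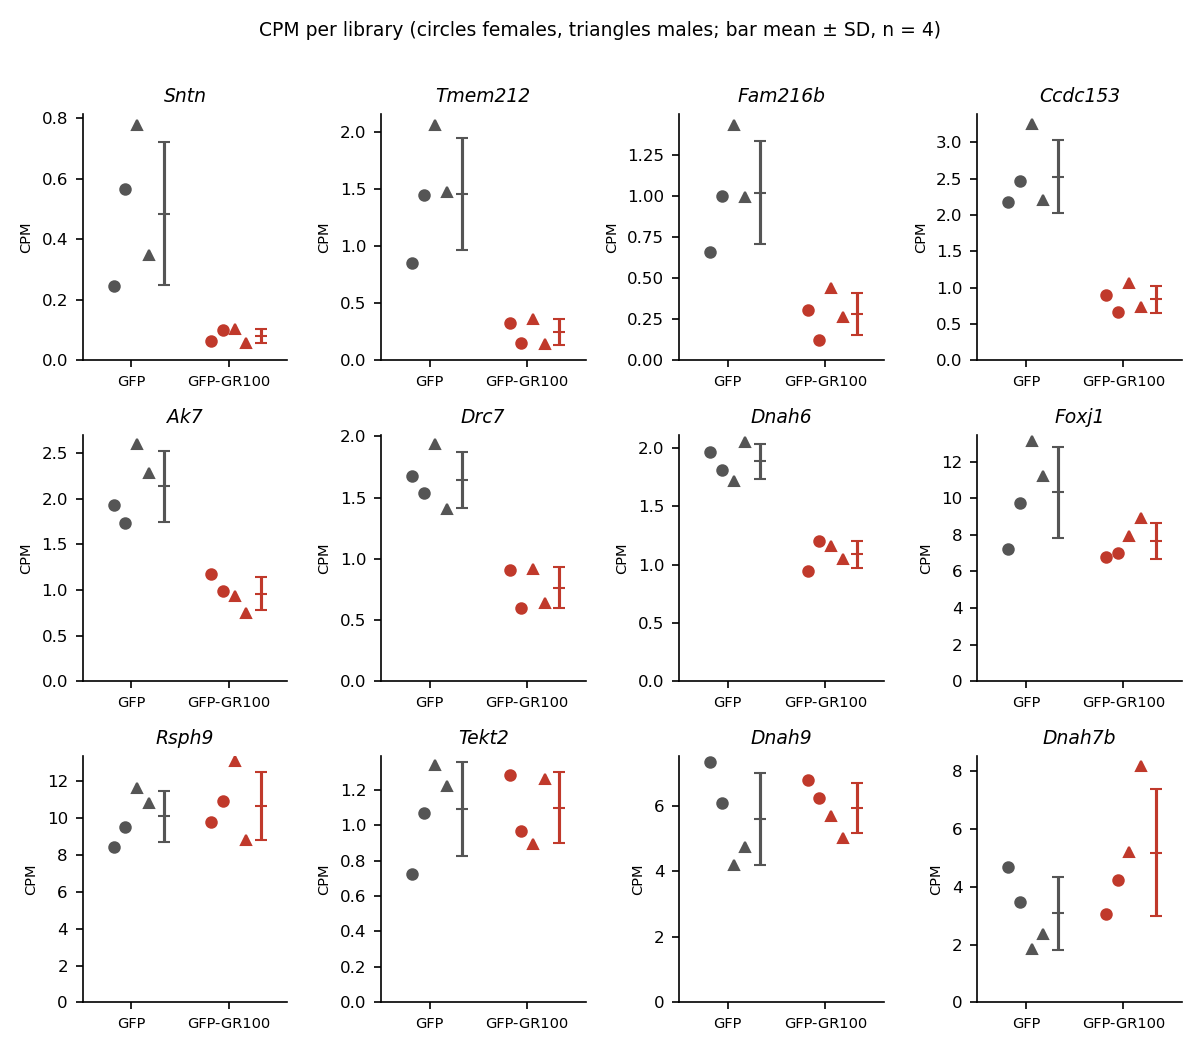
CPM of 12 of the genes in each library (circles females, triangles males) with bars for the mean ± SD of 4 animals, each panel from 0. In the 7 called genes (Sntn to Dnah6) the GFP-GR100 points all lie below the GFP points, whereas Foxj1, Rsph9, Tekt2, Dnah9 and Dnah7b overlap.

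No radial spoke gene passed the test. Rsph9, a protein of the spoke head and the member with the highest level per length, measured 8.43, 9.52, 11.6 and 10.8 CPM in GFP and 9.78, 10.9, 13.1 and 8.83 CPM in GFP-GR100. The groups overlapped over most of their range, with a log2 fold change of 0.09 (SE 0.13, adjusted p = 0.769). Rsph4a, also of the spoke head, measured 2.71 to 3.86 CPM in GFP and 2.78 to 3.39 CPM in GFP-GR100 (-0.12, SE 0.15). Rsph1, the remaining head protein, measured 2.46, 3.53, 3.5 and 2.69 CPM in GFP and 2.23, 2.36, 2.45 and 1.94 CPM in GFP-GR100. The groups of Rsph1 did not overlap, by the narrow gap between 2.45 and 2.46 CPM, and the log2 fold change of -0.44 (SE 0.17) did not pass (adjusted p = 0.244).

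The 4 central pair genes all had fold changes below 0 and none passed. Spag16 measured 0.857, 0.608, 1.05 and 0.422 CPM in GFP and 0.482, 0.342, 0.413 and 0.321 CPM in GFP-GR100, where GFP 4 overlapped GFP-GR100 (log2 fold change -0.91, SE 0.33, adjusted p = 0.209). Spag6 measured 5.07 to 6.62 CPM in GFP and 3.38 to 5.57 CPM in GFP-GR100 (-0.36, SE 0.16, adjusted p = 0.307). Hydin, a very large protein of a central pair projection whose loss causes hydrocephalus in mice, measured 1.42, 1.57, 0.955 and 1.09 CPM in GFP and 0.701, 0.786, 1.32 and 1.11 CPM in GFP-GR100. The females of GFP-GR100 were the lowest and the females of GFP the highest of the 8 for Hydin, and the pooled log2 fold change was -0.37 (SE 0.26). Spag17 stood at 1.69 to 1.80 CPM in GFP and 1.52 to 1.89 CPM in GFP-GR100. It shares 9.66% of its exon bases with Wdr3 and 6.08% with Spag17os, both on the other strand.

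No tektin passed the test, and their log2 fold changes ran from -1.19 to 0.03. Tekt4 measured 0.445, 0.675, 1.72 and 0.583 CPM in GFP and 0.394, 0.292, 0.297 and 0.438 CPM in GFP-GR100. The groups did not overlap, but GFP 3 was far above the other GFP libraries and the gap to GFP 1 was small (log2 fold change -1.19, SE 0.38, adjusted p = 0.155). Tekt1 measured 1.10 to 2.15 CPM in GFP and 1.20 to 1.58 CPM in GFP-GR100 (-0.25, SE 0.19). Tekt2 had means of 1.09 ± 0.267 and 1.10 ± 0.200 CPM (SD, n = 4 each) and a log2 fold change of 0.03 (SE 0.23). Tekt2 shares 20.8% of its exon bases with Gm12945 on the other strand, and the labels do not say whether counting used the strand.

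Of the genes for the molecular ruler and the nexin link, only Drc7 fell. Drc7, a subunit of the nexin-dynein regulatory complex on chromosome 8 from 95055103 to 95078141, measured 1.68, 1.54, 1.94 and 1.41 CPM in GFP and 0.909, 0.596, 0.917 and 0.643 CPM in GFP-GR100. All GFP-GR100 values were below 1 CPM and all GFP values above it, with means of 1.64 ± 0.227 and 0.766 ± 0.171 CPM (SD, n = 4 each; log2 fold change -1.10, SE 0.22, adjusted p = 0.0163). The call was lost without GFP 3 (adjusted p = 0.0554), without GFP-GR100 2 (0.0846) and without GFP 3 and GFP-GR100 4 together (0.0595). Ccdc39 and Ccdc40, which form the ruler that spaces dyneins and spokes along the doublet, did not pass. Ccdc39 measured 17.9 to 23.2 CPM in GFP and 22.2 to 28.2 CPM in GFP-GR100 (log2 fold change 0.22, SE 0.11, adjusted p = 0.359), and 16.9% of its exon bases are shared with Ttc14 on the other strand. Ccdc40 measured 2.06 to 2.23 CPM in GFP and 1.63 to 2.86 CPM in GFP-GR100, with a wider spread in GFP-GR100, and Ccdc113, a coiled-coil protein of the axoneme, had a log2 fold change of 0.00 (SE 0.18).

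The 12 other axonemal and cilium-associated genes were all below 0 on the log2 scale, 5 of them fell, and their groups did not overlap for 7. Their median log2 fold change was -0.79, and their summed level of 15.3, 17.6, 21.3 and 16.1 CPM in GFP stood against 10.2, 8.09, 11.0 and 8.34 CPM in GFP-GR100. Sntn, which encodes sentan, a protein of the ciliary tip, lies on chromosome 14 from 13670876 to 13683148 and was read at 15, 42, 70 and 28 counts in GFP and 6, 8, 8 and 4 counts in GFP-GR100. These correspond to 0.247, 0.567, 0.777 and 0.347 CPM and to 0.0657, 0.101, 0.103 and 0.0584 CPM. Every GFP-GR100 library lay below every GFP library, a 5.76-fold lower fitted level (log2 fold change -2.53, SE 0.45, adjusted p = 0.00827). Tmem212, a transmembrane protein known as a marker of ependymal cells, lies on chromosome 3 from 27866066 to 27896368 and measured 0.857, 1.45, 2.06 and 1.48 CPM in GFP and 0.328, 0.152, 0.362 and 0.146 CPM in GFP-GR100. The means of 1.46 ± 0.493 and 0.247 ± 0.114 CPM (SD, n = 4 each) differed 5.71-fold by the fit (-2.51, SE 0.34, adjusted p = 0.00135).

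Fam216b, on chromosome 14 from 78081021 to 78089007, measured 0.660, 1.00, 1.43 and 0.993 CPM in GFP and 0.307, 0.127, 0.439 and 0.263 CPM in GFP-GR100. The groups stood apart, with a fitted level 3.59-fold lower (log2 fold change -1.84, SE 0.32, adjusted p = 0.00723). Ccdc153, a small coiled-coil protein of the axoneme, lies on chromosome 9 from 44240677 to 44247306 and measured 2.18, 2.46, 3.25 and 2.20 CPM in GFP and 0.898, 0.659, 1.07 and 0.731 CPM in GFP-GR100. It had the smallest adjusted p of the 45 (0.00106), at 2.99-fold lower, and the gap between the groups was wider than the range within GFP-GR100. Ak7, an adenylate kinase of the axoneme, lies on chromosome 12 from 105705982 to 105782447 and measured 1.93, 1.73, 2.60 and 2.28 CPM in GFP and 1.18, 0.989, 0.930 and 0.745 CPM in GFP-GR100. It was 2.21-fold lower without overlap (-1.14, SE 0.21, adjusted p = 0.0096), though not once GFP-GR100 3 was left out (adjusted p = 0.0539). Sntn, Tmem212, Fam216b and Ccdc153 kept their call in every alternative fit in which they were tested, 17 for each of the first 3 and 18 for Ccdc153.

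The remaining 7 of these genes did not pass. Enkur, a calmodulin-binding protein of the cilium, measured 2.26, 2.30, 2.41 and 2.47 CPM in GFP and 1.51, 1.56, 1.90 and 1.67 CPM in GFP-GR100. Its groups did not overlap, with a log2 fold change of -0.51 (SE 0.15, adjusted p = 0.119). Cdhr4, a cadherin-related protein, measured 1.07, 1.54, 1.78 and 1.23 CPM in GFP and 1.02, 0.850, 0.878 and 0.833 CPM in GFP-GR100, also without overlap (-0.65, SE 0.22, adjusted p = 0.170). Cdhr4 shares 28.8% of its exon bases with Gm20662 and 18.5% with Gm20661 on the same strand, so its count may not be its own alone. Mlf1, Armc3, 1700009P17Rik (the flattop gene Cfap126 in RefSeq, whose product positions basal bodies) and Meig1 had log2 fold changes from -0.93 to -0.50 with overlapping groups. Lrriq1 measured 2.52, 2.03, 0.777 and 0.968 CPM in GFP and 1.96, 1.57, 1.11 and 1.07 CPM in GFP-GR100. In each group its females lay above its males, and the groups overlapped fully (-0.04, SE 0.21).

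The promoter sequences below are shown because genes with the same regulatory letters differed in response, and because no motif searched was present in all called genes. Windows ran from 250 bases before to 50 bases after the RefSeq start (GRCm38.p6) and were matched for 40 of the 45 genes, not for Foxj1, Wdr78, Armc4, Rsph1 and Rsph4a. Capitals mark GTTGCC, the core of the X-box read by Rfx factors, and GTAAACA, a forkhead motif, each searched on both strands, so that TGTTTAC is the forkhead motif on the other strand. The windows are chr14:13670626-13670925 (plus strand) for Sntn, chr10:103236273-103236572 (minus) for Lrriq1, chr9:44240427-44240726 (plus) for Ccdc153, chr12:105705732-105706031 (plus) for Ak7 and chr3:27896319-27896618 (minus) for Tmem212.
Sntn: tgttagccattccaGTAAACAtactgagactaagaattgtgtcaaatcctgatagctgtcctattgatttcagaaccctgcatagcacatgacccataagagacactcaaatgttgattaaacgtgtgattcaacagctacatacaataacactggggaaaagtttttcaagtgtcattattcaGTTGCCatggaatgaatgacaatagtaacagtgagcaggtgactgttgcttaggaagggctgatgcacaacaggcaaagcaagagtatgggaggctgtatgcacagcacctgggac
Lrriq1: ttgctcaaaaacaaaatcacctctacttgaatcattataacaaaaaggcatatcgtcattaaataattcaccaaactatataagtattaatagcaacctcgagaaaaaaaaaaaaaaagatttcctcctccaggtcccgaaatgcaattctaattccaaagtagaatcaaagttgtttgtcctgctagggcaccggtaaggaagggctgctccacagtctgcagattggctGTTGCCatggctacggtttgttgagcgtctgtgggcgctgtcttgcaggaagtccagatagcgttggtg
Ccdc153: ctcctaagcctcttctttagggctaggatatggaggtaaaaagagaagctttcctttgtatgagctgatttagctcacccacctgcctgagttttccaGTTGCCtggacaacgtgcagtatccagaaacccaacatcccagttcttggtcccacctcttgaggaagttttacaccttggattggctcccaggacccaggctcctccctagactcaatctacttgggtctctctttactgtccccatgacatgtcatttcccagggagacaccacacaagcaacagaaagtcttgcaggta
Ak7: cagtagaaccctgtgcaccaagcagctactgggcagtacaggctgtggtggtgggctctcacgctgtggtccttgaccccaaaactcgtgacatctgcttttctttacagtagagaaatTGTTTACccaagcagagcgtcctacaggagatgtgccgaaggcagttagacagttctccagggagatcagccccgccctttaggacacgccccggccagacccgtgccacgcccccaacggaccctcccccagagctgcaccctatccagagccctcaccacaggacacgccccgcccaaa
Tmem212: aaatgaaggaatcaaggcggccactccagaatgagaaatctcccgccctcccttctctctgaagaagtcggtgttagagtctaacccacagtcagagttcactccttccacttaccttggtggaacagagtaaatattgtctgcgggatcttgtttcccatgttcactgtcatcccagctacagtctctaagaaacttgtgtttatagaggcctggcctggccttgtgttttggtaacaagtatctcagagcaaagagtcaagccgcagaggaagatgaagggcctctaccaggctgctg
GTTGCC was found in 19 of the 40 windows, or 47.5%, against 12.4% of all 32544 windows of this length, and in 2 of the 7 called genes, Ccdc153 and Sntn. GTAAACA was found in Ak7, Mlf1 and Sntn, 7.5% of the 40 against 3.66% of all windows. The 10 letters that begin at GTTGCC in Sntn, GTTGCCATGG, occurred among the 40 only in Sntn, from -66 to -57 of the start, and in Lrriq1, from -19 to -10, and in 0.565% of all windows. Sntn fell 5.76-fold while Lrriq1 had a log2 fold change of -0.04, and Tmem212, with a fall like that of Sntn, held none of these letters in its window. A match is a description of letters and not a bound site, and the absence of a match says only that the letters are not in this window. Only these exact spellings were searched. Variant spellings of the X-box or the forkhead motif, in Tmem212 or any other window, were not counted.

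The genes differed widely in level per length. Mean RPKM over the 8 libraries ran from 0.0437 for Dnah12 to 6.49 for Rsph9, with a median of 0.498 against 3.72 over all genes tested. The 4 highest were Rsph9, Ccdc39 (6.29), Rfx3 (4.78) and Foxj1 (3.43), of which none was called. The levels in GFP of the genes that fell ran from 0.139 ± 0.0104 RPKM for Dnah6 to 2.01 ± 0.740 RPKM for Tmem212 and 2.28 ± 0.522 RPKM for Ccdc153 (SD, n = 4 each). Across the 45 genes, the log2 fold change had a Pearson's r of 0.16 and a Spearman's rho of 0.16 with the log2 of the mean RPKM, as a description over genes that share the 8 libraries.

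Fold changes of the 45 genes also varied with the length listed for each gene in the deposited table. This is its coding length column and not the genomic span: Sntn, from 13670876 to 13683148, is listed at 1240 bases. Across these genes, Pearson's r between the log2 fold change and the log2 of the listed length was 0.53 and Spearman's rho 0.51 (n = 45 genes, which share the 8 libraries and are not independent). Without the 10 heavy chains r was 0.42 and rho 0.39 (n = 35). For the 119 tested motile cilium genes outside the 45, r was 0.14 and rho 0.16, and over all 20987 genes tested r was -0.01 and rho 0.03. By listed length, the 13 genes under 2 kb had a median of -0.51 with 3 called, and the 15 from 2 to 5 kb a median of -0.56 with 3 called. The 5 from 5 to 10 kb had a median of -0.09 with 0 called, and the 12 over 10 kb a median of 0.03 with 1 called, Dnah6.

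**Figure D3:**
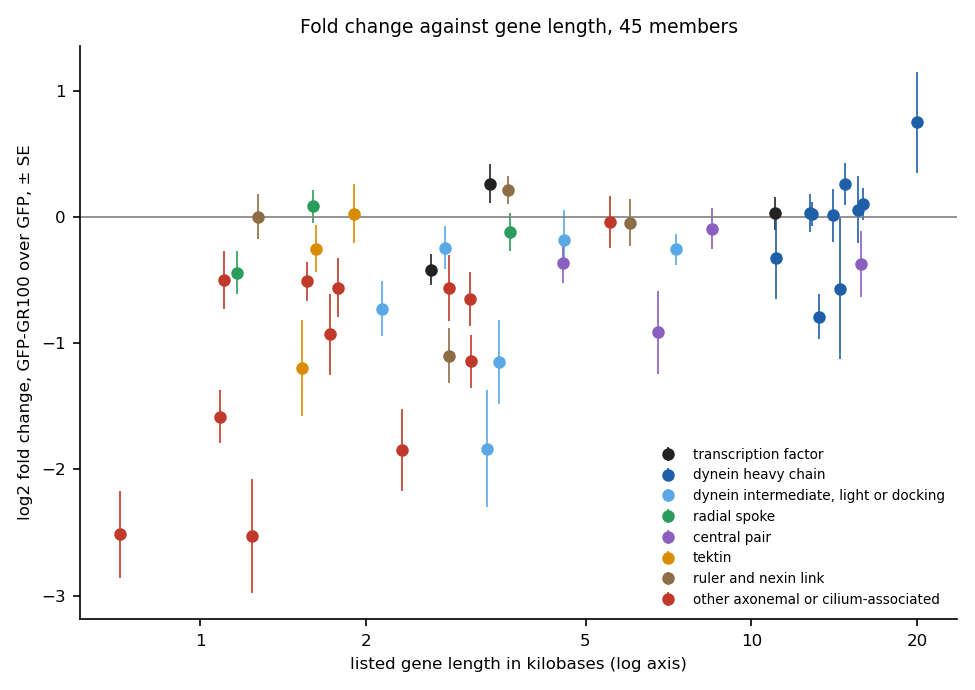
Log2 fold change in GFP-GR100 relative to GFP, ± SE, against the listed gene length in kilobases (log axis) for the 45 genes, coloured by role. The length is the listed coding length and not the genomic span. The 2 lowest points, at -2.53 and -2.51, are genes listed under 2 kb. All but 1 of the 12 genes listed over 10 kb lie between -0.57 and 0.75, with Dnah6 at -0.79.

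The animals of the GFP group differed among themselves. GFP 3, a male, was the highest GFP library for 22 of the 45 genes (48.9%, against 35% of all genes) and for 6 of the 7 called genes, and 29 of the 45 were higher in GFP 3 than in GFP 1. Tekt4 was 3.86-fold, Sntn 3.14-fold and Tmem212 2.41-fold higher in GFP 3 than in GFP 1, while Lrriq1, Dnah5 and Dnah7b stood at 0.308, 0.347 and 0.392 of the GFP 1 level. Both GFP males lay above both GFP females for 14 genes, among them Foxj1, Dnaic1, Dnaic2, Tekt1 and Tekt2. The reverse held for 11, which were Rfx3, Dnah1, Dnah2, Dnah5, Dnah7b, Dnah9, Dnah10, Hydin, Ccdc39, Ccdc40 and Lrriq1. No share over all genes was computed for the counts of 29, 14 and 11. Whether these counts are particular to the 45 genes is therefore not known. Without GFP 3 and GFP-GR100 4, 5 of the 45 were called lower.

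**Figure D4:**
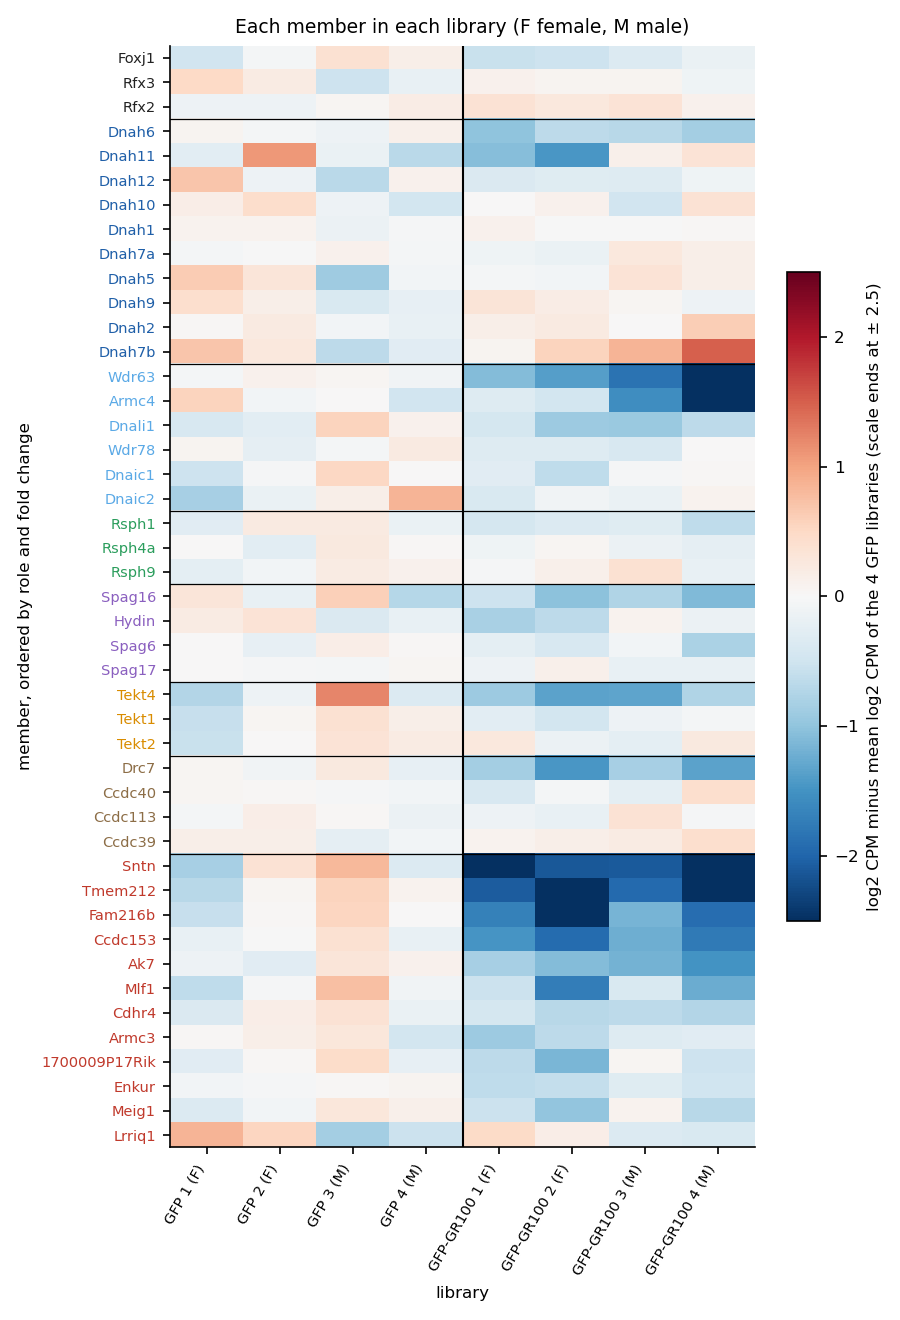
Log2 CPM of each gene in each library minus the mean of the 4 GFP libraries, with rows ordered by role and fold change and the colour scale ended at ± 2.5. The blue cells from Sntn to Ak7 fill the 4 GFP-GR100 columns, and within GFP the columns of replicate 1 and replicate 3 often have opposite colours.

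The group effect did not pass the edgeR test of a difference between the sexes for any of the 45 genes, where 0.0524% of all genes did. At an unadjusted p under 0.05 the effect was higher in males for 6 of the 45 genes and lower for 1. The 6 were Dnah7b, Dnah11, Dnah5, Rfx3, Hydin and Ccdc39, and the 1 was Ak7. Such a p was held by 16.4% of all genes, with 1964 of the 20987 higher in males and 1481 lower. DESeq2 called the difference for 3 of the 45 (Dnah7b, Dnah11 and Dnah5), where it called 2.7% of all genes, and edgeR with no filter on low counts for 4 (these and Rfx3), where it called 4.22%. Dnah7b had the smallest such p, with log2 fold changes of -0.16 (SE 0.26) in females and 1.67 (SE 0.27) in males, a difference of 1.83 (SE 0.37, adjusted p = 0.0935). Dnah11 followed, at -1.81 (SE 0.41) and 0.62 (SE 0.39), a difference of 2.44 (SE 0.56, adjusted p = 0.106). For the heavy chains as a group the median log2 fold change was -0.20 in females and 0.27 in males. The share of counts at 3 loci taken for ribosomal RNA sequence (Yam1, AY036118 and Lars2) moved the same way. It is not a measure of all ribosomal RNA in a library. In GFP this share was 11.4% and 6.74% for females and 3.8% and 3.54% for males. In GFP-GR100 it was 3.2% and 2.76% for females and 8.77% and 9.83% for males. With this share in the model, edgeR again called the sex difference for 0 of the 45. Because the share itself moved with sex and group together, that fit could not decide on a sex difference. The part of the share in the single values above was not tested. Within females Ccdc153 alone fell (background 0.0524% lower). Within males 9 genes fell (background 3.78%), which were Dnali1, Wdr63 and Armc4 besides the called genes other than Dnah6, and Dnah7b and Ccdc39 rose (background 5.56% higher). The log2 fold changes of Ccdc153 were -1.57 and -1.59 in females and males, and those of Drc7 -1.09 and -1.10.

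Genes of the motile cilium outside the 45 gave a smaller shift. Both lists were chosen with earlier results of these data known, so the difference between them is a description only. Of 124 listed and matched, 119 were tested, 3 fell and 0 rose, with a median log2 fold change of -0.10. Cfap77, a doublet protein listed as 1700101E01Rik in the table, measured 0.270 to 0.534 CPM in GFP and 0.0904 to 0.131 CPM in GFP-GR100 (-1.79, SE 0.37, adjusted p = 0.0211). Iqca measured 0.676 to 0.888 and 0.205 to 0.418 CPM (-1.39, SE 0.30, adjusted p = 0.0245), and Spata18 measured 0.300 to 0.726 and 0 to 0.142 CPM (adjusted p = 0.0338). All 3 had groups without overlap. At an unadjusted p under 0.05, 22 of the 119 were lower and 5 higher, and DESeq2 called 5 lower and 2 higher. The number called lower was 0 without GFP 4 and 1 without GFP 1, GFP 2, GFP-GR100 1 or GFP-GR100 3. None of the 16 tested genes in a list of multiciliation regulators and further Rfx family factors, 13 dynein assembly factors or 13 other dynein and docking genes passed. In the list with the Rfx factors, Rfx5, best known for binding the promoters of MHC class II genes, had the smallest p (0.36, adjusted p = 0.0651), of the assembly factors Ruvbl1 (-0.27, adjusted p = 0.229) and of the other dynein genes Dynlrb2 (-0.82, adjusted p = 0.183). Genes of the primary cilium and its transport, which most brain cells carry, had a median of -0.10 with 0 of 54 lower and 0 higher, the smallest p belonging to Tctn1 (0.40, adjusted p = 0.0811). Below 0 on the log2 scale were 43 of the 54, or 79.6%, a larger share than the 71.1% of the 45. Their log2 fold changes ran from -0.22 to 0.40. At an unadjusted p under 0.05, 3 of the 54 were lower and 2 higher, and DESeq2 called 0 lower.

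**Figure D5:**
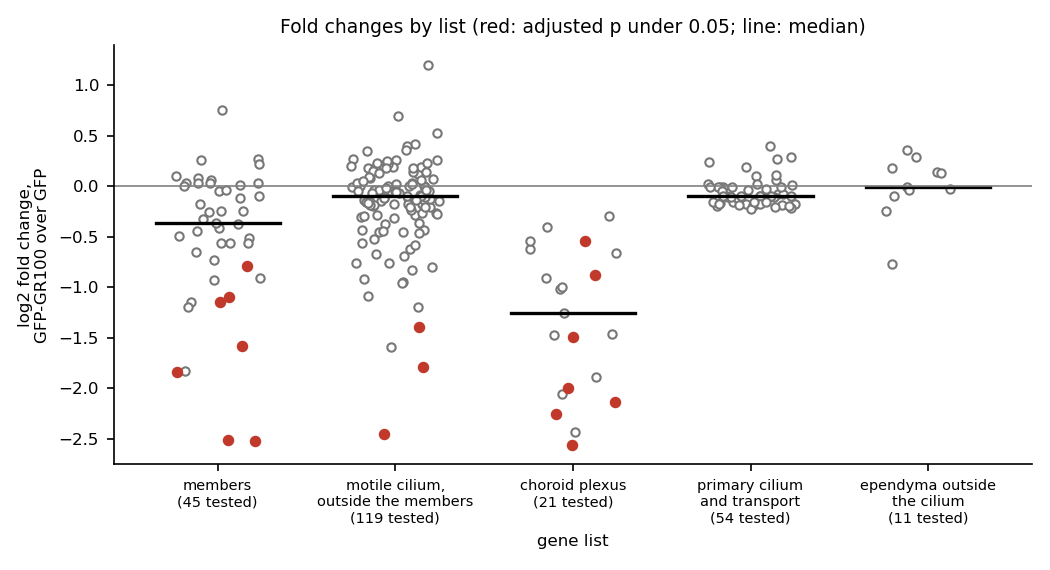
Log2 fold change in GFP-GR100 relative to GFP for each tested gene of 5 lists, with red points for an adjusted p under 0.05 and a line at the median. The medians are -0.36 for the 45 genes (members), -0.10 for other motile cilium genes, -1.25 for choroid plexus markers, -0.10 for primary cilium genes and near 0 for ependymal markers outside the cilium.

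Markers of the choroid plexus were lower beside the cilium genes. Each of the 21 lay below 0 on the log2 scale, the median being -1.25, and 7 fell: Folr1, Enpp2, F5, Cldn2, Calml4, Slc13a4 and Steap1. Leaving out GFP 4 raised this count to 13, and it was 4 when GFP 1 and 3 when GFP-GR100 2 or GFP-GR100 3 was left out. The summed level of the 21 was 374 to 712 CPM in GFP and 238 to 321 CPM in GFP-GR100, and none of the 21 was at 0. Ttr, the transthyretin gene that marks this epithelium, measured 274, 152, 322 and 112 CPM in GFP and 73.2, 21.3, 41.7 and 24.8 CPM in GFP-GR100, without overlap and without passing the test (adjusted p = 0.145). GFP 3, the library highest for 6 of the 7 called cilium genes, was also the highest for Ttr, and GFP 4 was the lowest GFP library for Ttr. GFP 1 went the other way: at 274 CPM it was second to GFP 3 for Ttr. It was the lowest GFP library for 4 of the 7 called cilium genes and the highest for 0. The part of choroid plexus tissue in the fall of the cilium genes was not tested.

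The 11 ependymal markers outside the cilium, most of them shared with astrocytes, did not pass in either direction, with a summed level of 797 to 962 CPM in GFP and 850 to 1006 CPM in GFP-GR100. The smallest p among them belonged to Sox9 (log2 fold change 0.29, adjusted p = 0.144). Fold changes were below 0 for 6 of the 11 and above 0 for 5, from -0.77 to 0.36 on the log2 scale. At an unadjusted p under 0.05 in the edgeR test, 1 was lower and 2 were higher. The groups did not overlap for 1 lower and 1 higher gene. None of the 12 astrocyte markers passed (smallest p Slco1c1, adjusted p = 0.124), nor did any of 12 striatal (Adora2a, 0.224), 15 neuroblast and progenitor (Tubb3, 0.174), 12 meningeal (Aldh1a2, 0.0514), 10 endothelial (Kdr, 0.0853), 12 neuronal (Nefl, 0.142) or 12 oligodendrocyte markers (Mog, 0.0843). Fold changes were below 0 for 11 of the meningeal, 12 of the neuronal and 11 of the oligodendrocyte markers, with medians of -0.21, -0.13 and -0.28, for 5 of the endothelial and astrocyte markers each, for 5 of the neuroblast and progenitor markers and for 1 striatal marker. Of 12 microglial markers 9 rose, Cx3cr1 with the smallest p (0.64, adjusted p = 0.000733). The dissected cortex and hippocampus also weighed 111.4 to 126.6 mg in GFP and 71.9 to 85.1 mg in GFP-GR100, so tissue size and the group cannot be told apart.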

How the data were processed

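Per the labels' protocols, total RNA of each brain sample was made into a stranded paired-end library and sequenced on an Illumina HiSeq. The deposited values are unnormalized counts for every gene, and RPKM, which the authors scaled to library total and gene length. Per the submitters' processing notes, the tools were CASAVA, TopHat2 2.1.0, DESeq2 and R 3.4.1, with the mm10 build. The counter, its annotation and its use of strand: not given in the sources used here.

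Counts were tested with edgeR 4.0.16 (limma 3.58.1, R 4.3.3) by the robust quasi-likelihood test, with TMM scaling, sex and group in the model, filterByExpr (minimum count 10, minimum total 15) and Benjamini-Hochberg adjustment over 20987 genes, threshold 0.05. The 4 libraries of a group are separate animals. Each group p-value tests the group difference after sex, against variation between animals that edgeR estimates with information from all genes tested. The replicate number follows accession order and pairs nothing. A count of 3 corresponds to 0.0337 to 0.0455 CPM, and counting error is largest for the genes of lowest count. Sex differences came from the product of sex and group. The SE of an edgeR log2 fold change was derived as its absolute value over the square root of the F statistic. It is therefore approximate, most of all near 0. The script was tested on simulated data.

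The 45 genes and the comparison lists were chosen with earlier results of these data known. All 45 are named, and of each other list the called genes, at most 5 by p, or the gene with the smallest p; Ttr and the further called choroid plexus markers were named after their values were seen. Of the other motile cilium genes, 7 were matched by identifier through GENCODE M21 symbols, and Cfap47 and Cfap99 were not matched. Exon overlaps and shared stretches of 50 bases were computed on M21, and promoter windows are from RefSeq. The alternatives tried were DESeq2 1.42.0, limma-trend on log2(RPKM + 0.1) and log2(RPKM + 0.01), limma-voom, size factors by median of ratios, a mean of at least 1 CPM, no filter, no sex covariate, the ribosomal share as a covariate, and leaving out each library or GFP 3 and GFP-GR100 4 together.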

Additional observations from a re-analysis of the deposited data

How the results depend on the processing

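The number of the 45 genes called lower was 7, and it was 12 with no filter on low counts, 4 with a mean of at least 1 CPM (34 genes tested), 9 with DESeq2, and 5 to 7 when a single library was left out. Besides 0 called higher, Dnah7b gave 1 with no filter and 1 with the ribosomal share in the model. The median log2 fold change of -0.36 became -0.11 with a mean of at least 1 CPM, where fewer genes were tested, and -0.17 on log2(RPKM + 0.1), and it ran from -0.37 to -0.24 when a library was left out. The sex difference was called for 4 genes with no filter (Dnah7b, Dnah11, Dnah5 and Rfx3), 3 with DESeq2 (Dnah7b, Dnah11 and Dnah5) and 0 to 2 when a library was left out (1 without GFP 1, 2 without GFP 4, 1 without GFP-GR100 3).

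Other motile cilium genes called lower numbered 7 with no filter, 0 with a mean of at least 1 CPM, 5 with DESeq2, 1 on log2(RPKM + 0.01), 5 with the ribosomal share and 0 to 3 without a library (1 without GFP 1, GFP 2, GFP-GR100 1 or GFP-GR100 3, and 0 without GFP 4). Those called higher numbered 2 with no filter, with DESeq2, on either RPKM scale and with the ribosomal share, 1 with a mean of at least 1 CPM, with limma-voom and without GFP 3 and GFP-GR100 4, and 0 to 1 without a library. Choroid plexus markers called lower numbered 17 with no filter, 15 with DESeq2, 4 with a mean of at least 1 CPM, 4 on either RPKM scale, and 3 to 13 without a library (13 without GFP 4, 4 without GFP 1, 3 without GFP-GR100 2 or 3). The cause of these shifts was not tested. Primary cilium genes called lower stayed at 0 in every alternative.

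Of 799 log2 fold changes of single genes recomputed, 743 kept direction and side of the threshold, 14 lost and 12 gained a call, and 30 of 11 uncalled genes changed sign. With no sex covariate Rfx3 was -0.0082 and Dnah10 -0.0074. With limma-voom Dnah10 was -0.034 and Tekt2 -0.0033. On log2(RPKM + 0.1) Ccdc40 was 0.0053 and Lrriq1 0.013, and on log2(RPKM + 0.01) they were 0.0006 and 0.042. Without GFP 3 and GFP-GR100 4, Rfx3 was -0.061, Dnah5 -0.19, Dnah10 -0.14 and Rsph4a 0.038. When a single library was left out, Rfx3 ran from -0.068 to 0.15, Dnah5 from -0.19 to 0.24, Dnah7a from -0.018 to 0.10, Dnah10 from -0.22 to 0.13 and Dnaic2 from -0.37 to 0.083. Likewise Rsph9 ran from -0.0099 to 0.21, Tekt2 from -0.13 to 0.18, Ccdc40 from -0.23 to 0.089, Ccdc113 from -0.13 to 0.092 and Lrriq1 from -0.14 to 0.12. No paired analysis was possible because the labels give no replicate numbers shared between the groups. Sntn had 4 to 8 counts in the GFP-GR100 libraries and Wdr63 1 count in GFP-GR100 4.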
